A study of Mus musculus with 5 samples.

Results

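Peaks of the zinc finger transcription factor ZFP24 were mapped at 99 mouse genes for neurotransmitter receptors and voltage-gated ion channels. The 99 genes are those of the 21851 protein-coding genes of the GENCODE M21 basic annotation (mm10) whose symbol starts with Gria, Grik, Grin1, Grin2, Grin3, Grm followed by a digit, Gabr, Chrn, Cacna, Cacnb, Cacng, or Scn followed by a digit. A gene was counted as having a peak where the centre of a peak lay within 10 kb of one of its protein-coding transcript starts or between the start and end of the gene. Chromatin immunoprecipitation sequencing (ChIP-seq) was done on wild-type and Zfp191-null oligodendrocytes (OLG), on wild-type and Zfp191-null oligodendrocyte progenitor cells (OPC) and on a pooled input, with 1 library in each of these 5 groups. Zfp191 is another name of Zfp24. All cells came from brains of C57BL/6 mice at postnatal day 7. The OPC were isolated by immunopanning, and the OLG were grown from such OPC over 5 days in medium that lacked PDGF and held 40 ng/ml of triiodothyronine. The null cells and the input, which pooled DNA of wild-type and null cells of both types, are the controls of the study. The data described here are the 2 deposited peak lists, 1752 peaks for OLG and 4643 for OPC, each tied by the labels to the wild-type and null library of its cell type. The study has 1 input for both. The lists hold positions only, so the height of a peak and the depth of a library are unknown, and no replicate shows how a list would vary. Depth, threshold and binding cannot be told apart as sources of the difference in list length.

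Oligodendrocytes make the myelin of the central nervous system, and ZFP24 is needed for their maturation in mice. Their progenitors carry receptors for glutamate and GABA, form synapses with axons, and have voltage-gated sodium and calcium channels, a set of traits that they largely lose as they differentiate. Ionotropic receptors are channels opened by a transmitter, metabotropic receptors act through G proteins, and voltage-gated channels are pores that open when the membrane is depolarised and are tuned by auxiliary subunits. A peak list holds no expression, so the labelled cell types could not be checked against their markers as RNA would allow. Counted as genes with a peak, OPC markers had 0 of 6 in OLG and 4 of 6 in OPC, and oligodendrocyte markers 0 of 6 in OLG and 1 of 6 in OPC. Neuron markers had 3 of 9 in each list, and astrocyte markers 0 of 7 in OLG and 3 of 7 in OPC. All protein-coding genes gave 7.78% in OLG and 16.2% in OPC. In each list the neuron markers Nefl and Nefm were counted from the same peak.

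Peaks lay at 26 of the 99 receptor and channel genes in 1 list or the other, against 20.9% of all protein-coding genes. In OLG 9 of the 99 genes had a peak, or 9.09% (95% interval 4.24 to 16.6), where all protein-coding genes gave 7.78%. In OPC 22 of the 99 had one, or 22.2% (14.5 to 31.7), where all protein-coding genes gave 16.2%. Intervals are exact (Clopper-Pearson for shares, Poisson for counts) and cover counting error over genes or peaks only. Both background shares lie within the members' intervals. The genes with an OLG peak included Gria4, Grin2a, Grm7, Gabra2, Cacna1c, Cacna1g, Cacna2d3 and Cacng4. The genes with an OPC peak included Gria2, Gria4, Grik1, Grik2, Grik3, Grik4, Grik5, Gabra2, Gabrr1, Cacna1a, Cacna1b, Cacna1c, Cacna1d, Cacna1e, Cacna2d3, Cacna2d4, Cacnb1, Cacnb2, Cacng2 and Scn4a. In both lists were 5 genes, or 5.05%, against 3.05% of all protein-coding genes, Gria4, Gabra2, Cacna1c and Cacna2d3 among them. The peaks numbered 10 in OLG and 34 in OPC, and no peak was counted for more than 1 of the genes. Their ratio, 3.40 (OPC over OLG), rests on only 10 OLG peaks. The whole lists, which also hold peaks away from protein-coding genes, gave 2.65. Peaks at all protein-coding genes numbered 1481 in OLG and 3504 in OPC. Counted as genes with a peak, the ratio was 2.44 for the members and 2.08 for all protein-coding genes.

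Among the sequences under these peaks, 2 kinds are shown. One, seen at 6 OPC peaks, held a tandem TCAT repeat, a sequence ZFP24 is known to bind. The other, at the 6 OLG and 7 OPC peaks within 1 kb of a start, was mostly rich in CpG dinucleotides and held no such repeat. The other 4 OLG and 21 OPC peaks held no such repeat and lay over 1 kb from any start of the member. Some of these were rich in CpG too. The OPC peaks at Cacnb1, Cacna1d (the one nearer its start) and Cacna1a had 26, 17 and 15 CpG in the 200 bp around the centre. Of the 6 repeat peaks, 5 are given first, on the plus strand of mm10, 5′ to 3′, with the tract of at least 12 bases in capitals. The repeat reads as TCAT or, in another phase or on the other strand, as ATTC, TGAA and the like.
Cacng2, OPC, intron, chr15:78020547-78020755: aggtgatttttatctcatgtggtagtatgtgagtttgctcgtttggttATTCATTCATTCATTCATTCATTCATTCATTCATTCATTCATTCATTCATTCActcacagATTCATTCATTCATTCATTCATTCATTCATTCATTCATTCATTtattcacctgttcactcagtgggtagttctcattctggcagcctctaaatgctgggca
Cacna1e, OPC, intron, chr1:154408942-154409150: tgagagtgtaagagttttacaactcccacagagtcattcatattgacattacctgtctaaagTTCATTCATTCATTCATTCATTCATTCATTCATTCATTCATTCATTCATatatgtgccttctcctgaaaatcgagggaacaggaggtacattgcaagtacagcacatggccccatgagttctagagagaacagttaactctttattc
Grik4, OPC, intron, chr9:42687644-42687852: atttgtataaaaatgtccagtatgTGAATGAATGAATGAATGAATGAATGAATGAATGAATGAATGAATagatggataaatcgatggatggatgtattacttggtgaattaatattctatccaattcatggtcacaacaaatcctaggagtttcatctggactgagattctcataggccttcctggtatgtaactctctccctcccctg
Cacna2d3, OPC, upstream, chr14:29723607-29723815: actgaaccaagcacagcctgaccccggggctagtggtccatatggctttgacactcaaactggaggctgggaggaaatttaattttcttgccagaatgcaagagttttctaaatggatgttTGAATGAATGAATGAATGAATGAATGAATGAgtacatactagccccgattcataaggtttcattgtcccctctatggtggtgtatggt
Grik3, OPC, upstream, chr4:125485835-125486043: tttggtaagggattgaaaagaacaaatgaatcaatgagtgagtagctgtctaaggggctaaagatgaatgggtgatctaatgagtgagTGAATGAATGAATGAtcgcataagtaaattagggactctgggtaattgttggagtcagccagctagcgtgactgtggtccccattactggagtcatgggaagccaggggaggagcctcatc

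The next 4 are peaks within 1 kb of a start that overlap no annotated untranslated region, again on the plus strand, with each CpG dinucleotide in capitals.
Gabra2, OLG, 178 bp upstream, chr5:71095917-71096137: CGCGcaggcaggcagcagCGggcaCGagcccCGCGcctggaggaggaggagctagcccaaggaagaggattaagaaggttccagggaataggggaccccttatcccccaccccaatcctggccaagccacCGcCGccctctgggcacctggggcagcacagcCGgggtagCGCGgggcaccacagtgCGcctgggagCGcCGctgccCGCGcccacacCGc
Grin2a, OLG, 732 bp downstream, chr16:9993740-9993960: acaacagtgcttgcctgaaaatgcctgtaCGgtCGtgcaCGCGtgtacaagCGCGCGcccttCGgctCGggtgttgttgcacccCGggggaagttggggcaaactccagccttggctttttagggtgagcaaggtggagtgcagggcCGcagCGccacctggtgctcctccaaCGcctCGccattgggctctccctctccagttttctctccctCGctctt
Cacna2d3, OPC, 421 bp upstream, chr14:29722181-29722389: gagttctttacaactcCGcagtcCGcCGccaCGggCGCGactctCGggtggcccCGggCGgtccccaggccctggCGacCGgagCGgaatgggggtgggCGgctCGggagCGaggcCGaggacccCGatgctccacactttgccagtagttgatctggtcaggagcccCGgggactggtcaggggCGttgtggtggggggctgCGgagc
Gria2, OPC, 237 bp upstream, chr3:80802968-80803176: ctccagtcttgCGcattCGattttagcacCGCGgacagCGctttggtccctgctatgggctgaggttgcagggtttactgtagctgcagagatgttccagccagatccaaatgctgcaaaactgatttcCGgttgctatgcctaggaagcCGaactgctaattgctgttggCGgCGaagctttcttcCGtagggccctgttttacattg

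Receptor and channel genes are long, and in both lists the share of them with a peak was highest among those of 300 kb or more. Their median length was 88.6 kb, against 17.4 kb for all protein-coding genes, and it was 238 kb for the 26 with a peak and 46.5 kb for the 73 without. Among the 20 members of 300 kb or more, 5 had an OLG peak, or 25.0%, and 10 had an OPC peak, or 50%. All protein-coding genes of that length gave 22.3% for OLG and 49.9% for OPC. Of the 24 members of 100 to 300 kb, 1 had an OLG peak and 7 had an OPC peak, or 4.17% and 29.2%, where all genes of that length gave 14.8% and 34.3%. For 30 to 100 kb the counts were 2 and 3 of 22, where all genes gave 9.62% and 20.5%. For 10 to 30 kb they were 1 and 2 of 28, where all genes gave 6.26% and 13%. None of the 5 shorter members had a peak, where all genes under 10 kb gave 5.02% and 9.03%. In both lists the members' share was thus below that of all genes in 4 of the 5 classes and at or above it in the longest, and the members' interval included the share of all genes in every class.

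**Figure D1:**
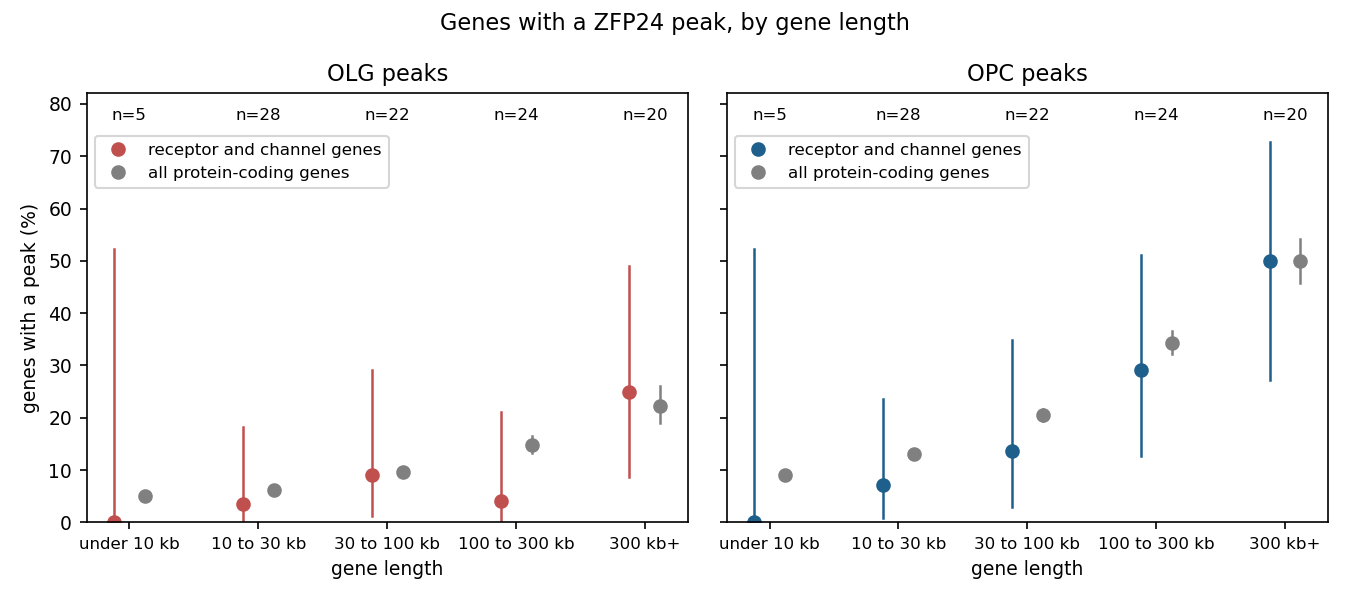
Share of genes with an OLG peak (left) and an OPC peak (right) by gene length, for the receptor and channel genes (coloured) and all protein-coding genes (grey). Points are shares, lines are exact 95% intervals and n is the number of receptor and channel genes in each class. In OPC the share of receptor and channel genes is higher in each longer class, up to 50%. In OLG it is 4.17% at 100 to 300 kb, below the 9.09% at 30 to 100 kb, and 25.0% at 300 kb or more.

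Per length of gene, peaks were sparser at the receptor and channel genes than at protein-coding genes as a whole. Their bodies and start windows, merged, covered 17.3 Mb, and held 0.579 OLG peaks per Mb (0.278 to 1.07) and 1.97 OPC peaks per Mb (1.36 to 2.75). The merged territory of all protein-coding genes, 1206 Mb, held 1.23 OLG peaks per Mb (1.17 to 1.29) and 2.91 OPC peaks per Mb (2.81 to 3). Among genes of 100 kb or more the values were closer. The 44 such members held 0.471 OLG peaks per Mb (0.190 to 0.971) and 1.95 OPC peaks per Mb (1.31 to 2.80), and all such genes 0.727 and 2.12. The difference between the members and all genes was not tested.

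Among the ionotropic glutamate receptors, peaks in OLG lay at 0 of 5 kainate, 1 of 4 AMPA and 1 of 7 NMDA receptor genes. In OPC they lay at all 5 kainate receptor genes (interval 47.8 to 100%), at 2 of 4 AMPA receptor genes and at 0 of 7 NMDA receptor genes (0 to 41.0%). These counts moved with the window. Within 10 kb of starts alone 3 of the 5 kainate receptor genes had an OPC peak, where all protein-coding genes gave 12.6%. With 50 kb 3 of the 7 NMDA receptor genes had an OLG peak and 2 an OPC peak, where all protein-coding genes gave 15.5% and 30.3%. Metabotropic glutamate receptors had 1 of 8 in each list, and GABA-A receptors 1 of 19 in OLG and 2 of 19 in OPC. None of the 16 nicotinic acetylcholine receptor genes had a peak in either list (0 to 20.6%). With 50 kb around starts 1 of the 16 had an OLG peak and 4 had an OPC peak, beside the same 15.5% and 30.3% of all genes. Among calcium channel genes the pore-forming alpha1 subunits had 2 of 10 in OLG and 5 of 10 in OPC. The alpha2delta subunits had 1 of 4 and 2 of 4, the beta subunits 0 of 4 and 2 of 4, and the gamma subunits with the related AMPA receptor auxiliary proteins (TARPs) 1 of 8 and 1 of 8. Sodium channel alpha subunits had 0 of 10 and 1 of 10, and beta subunits 1 of 4 and 1 of 4. In all, 4 of 26 calcium channel genes had an OLG peak and 10 had an OPC peak, against 1 and 2 of 14 sodium channel genes. For OLG these were 15.4% (4.36 to 34.9) and 7.14% (0.181 to 33.9), where all genes gave 7.78%. For OPC they were 38.5% (20.2 to 59.4) and 14.3% (1.78 to 42.8), where all genes gave 16.2%. The intervals overlap in each list, and the difference was not tested. Only the OPC interval of the calcium channel genes lies above the share of all genes. That interval includes the 34.3% of all genes of 100 to 300 kb, the class of their median length.

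Gene length ran alongside these counts. The median gene was 394 kb long for kainate receptors, 298 kb for AMPA receptors and 46.5 kb for NMDA receptors, and the nicotinic receptor genes, at 17.5 kb, were near the median of all genes. Length did not order the subfamilies fully: metabotropic glutamate receptor genes had a median of 318 kb and 0.315 peaks per Mb in OLG (0.00797 to 1.75) and in OPC (0.00797 to 1.75). In OPC the kainate receptor genes held 4.32 peaks per Mb (1.87 to 8.52), AMPA receptor genes 3.52 (0.960 to 9.02) and alpha1 genes 3.79 (1.73 to 7.19), all with intervals that include the 2.91 of all protein-coding genes. GABA-A receptor genes held 0.704 per Mb (0.0853 to 2.54) and sodium channel alpha genes 0.783 (0.0198 to 4.36). The interval of the metabotropic receptor genes in OPC lies below both 2.91 and the 2.12 of genes of 100 kb or more, and that of the GABA-A receptor genes lies below the first of these and includes the second. With 4 to 19 genes in a subfamily most intervals overlap, and no difference between subfamilies was tested.

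**Figure D2:**
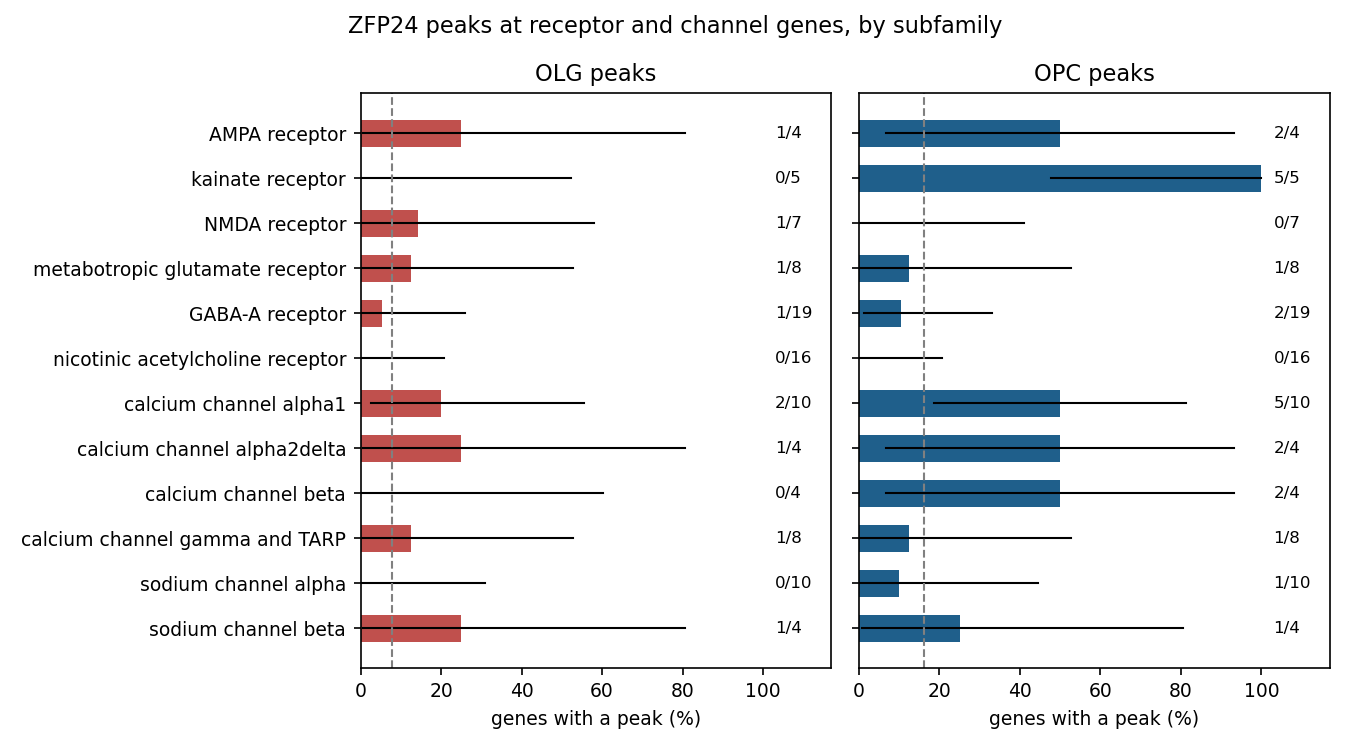
Percentage of genes of each of the 12 subfamilies with an OLG peak (left) or an OPC peak (right), with exact 95% intervals as black lines and the counts at the right of each panel. Dashed lines mark all protein-coding genes (7.78% for OLG and 16.2% for OPC). Kainate receptor genes stand at 0 of 5 in OLG and 5 of 5 in OPC.

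Among the AMPA receptors, which carry most fast excitatory transmission, Gria4 was the gene with peaks in both lists. Its OLG peak (chromosome 9, 4795694 to 4795914) lay 285 bp upstream of a start, in an intron of a longer transcript, and had 68.0% GC. Its OPC peak (chromosome 9, 4794110 to 4794318) lay 1305 bp downstream in an intron, with 41.0% GC and its centre 1590 bp from that of the OLG peak, so these were separate sites. Gria2 encodes the subunit that keeps AMPA receptors impermeable to calcium. It had 3 OPC peaks around its start, 237 bp upstream and 1553 and 2271 bp downstream in an intron, and no OLG peak. Gria1 and Gria3 had none in either list.

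Kainate receptors are glutamate-gated channels that modulate excitability, and Grik1, Grik2 and Grik3 encode subunits that can form channels alone. Grik2 had 3 OPC peaks, in a coding exon 90 bp downstream of a start (chromosome 10, 49783065 to 49783273), 1602 bp upstream of another start and, in an intron, 27179 bp downstream of the first. Grik3 had 1 peak 4761 bp upstream with a tract of 15 bases and another in an intron 110833 bp downstream. The Grik1 peak was also intronic, 115387 bp from the nearest start. Grik4 and Grik5 encode the subunits that need a partner. The Grik4 peak lay in an intron, 120951 bp downstream, on a tract of 45 bases. The Grik5 peak lay 458 bp upstream of its start, and 4455 bp from that of Zfp574, a zinc finger gene for which it was counted too. So 2 of the 5 genes had a peak within 1 kb of a start.

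NMDA receptors need glutamate, glycine and depolarisation to open. Grin2a, which encodes a glutamate-binding subunit that becomes more abundant in the maturing brain, had 2 OLG peaks, 52 bp upstream of a start (chromosome 16, 9994865 to 9995085) and 732 bp downstream of one. It had no OPC peak, and the other 6 NMDA receptor genes had no peak in either list. Of the metabotropic receptors, Grm7, a presynaptic inhibitory receptor gene, had an OLG peak in a 5′ untranslated exon, 268 bp downstream of its start (chromosome 6, 110645740 to 110645960). Grm8 and Grm5, of 860 and 551 kb, were among the longest members with no peak.

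Gabra2 encodes an alpha subunit of the GABA-A receptor, the chloride channel of fast inhibition. It had a promoter peak in each list, whose centres lay 40 bp apart and which shared 175 bp: 178 bp upstream in OLG (chromosome 5, 71095917 to 71096137) and 138 bp upstream in OPC (chromosome 5, 71095883 to 71096091). Both had 70.5% GC. Gabrr1, a rho subunit gene, had an OPC peak 24950 bp downstream in an intron. The other 17 GABA-A receptor genes had none, including Gabrg3 (671 kb) and Gabrb1 (491 kb).

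Cacna1c, the pore of an L-type calcium channel, had overlapping peaks near its starts in both lists. The OLG peak (chromosome 6, 119107949 to 119108169) lay 84 bp and the OPC peak (chromosome 6, 119108099 to 119108307) 14 bp upstream of its nearest start. These 2 starts were not the same. Both peak centres were in a 5′ untranslated exon of another transcript, and the peaks shared 71 bp. In OPC 3 further peaks lay in its introns, 39836, 102786 and 151161 bp downstream of their nearest starts. The other L-type gene with a peak, Cacna1d, had 2 OPC peaks in introns. That at 11639 bp (chromosome 14, 30479413 to 30479621) was 95 bp from the start of Dcp1a, an mRNA decapping gene.

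The other pore-forming genes with a peak each had 1. In OPC those at Cacna1a, the P/Q-type pore, lay in a coding exon 143672 bp downstream with 66.0% GC, at Cacna1b, the N-type pore, in an intron at 137077 bp, and at Cacna1e, the R-type pore, in an intron at 316874 bp on a tract of 49 bases. In OLG the peak at Cacna1g, a T-type pore, lay 6636 bp upstream, nearer to the start of Spata20, at 4514 bp.

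Cacna2d3, which encodes an auxiliary subunit that brings calcium channels to the membrane, had a cluster of peaks before its start. The OLG peak (chromosome 14, 29723762 to 29723982) lay 2008 bp upstream. OPC peaks lay 421 bp upstream, with 71.5% GC and no tract, and 1847 bp upstream, with 43.0% GC and a tract of 31 bases. The OLG peak shared 54 bp with this repeat peak, and the tract lay 3 bp outside the OLG peak. Of the other 2 OPC peaks, both intronic, the nearest starts were those of Lrtm1. Cacna2d4 had an OPC peak in a coding exon. Among the beta subunit genes, Cacnb2 had an OPC peak 102 bp downstream of a start, in a 5′ untranslated exon. The OPC peak counted for Cacnb1 lay 4523 bp upstream of it and 233 bp from the start of the ribosomal protein gene Rpl19.

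Cacng2 encodes stargazin, the TARP that carries AMPA receptors to the synapse. Its OPC peak, in an intron 99377 bp from the start, held 2 tracts, of 53 and 43 bases. Cacng4, another TARP gene, had an OLG peak 38874 bp downstream in an intron, without a tract. Among the sodium channel genes, Scn4a, the skeletal muscle pore, had an OPC peak in an intron. Outside the 10 kb window, the nearest genes that were not counted were Chrnb2 in OLG, with a peak 10805 bp upstream, and Chrna9 in OPC, with one 21410 bp away, both nicotinic receptor genes.

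**Figure D3:**
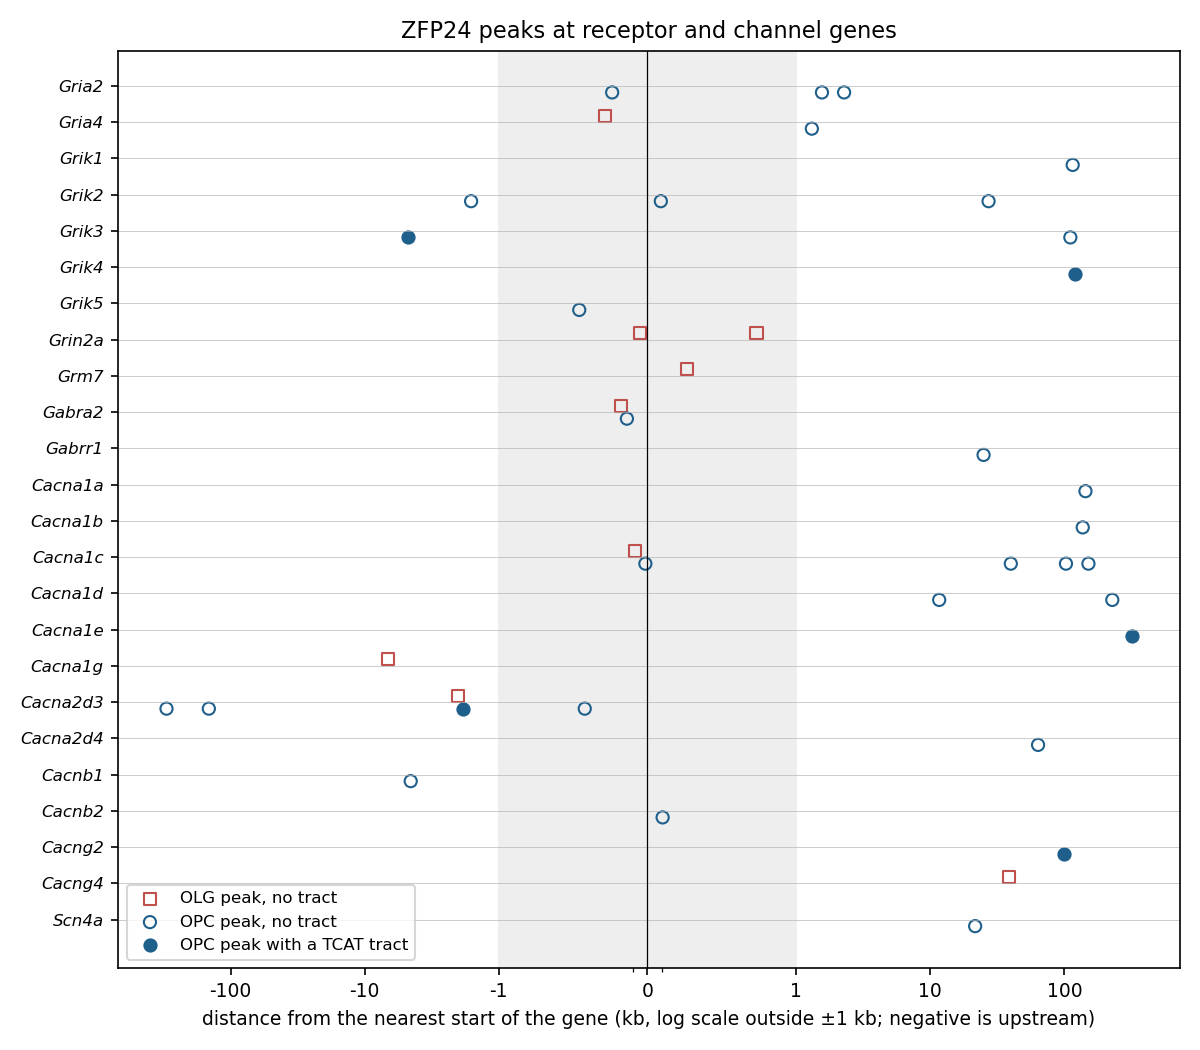
Position of each OLG peak (squares) and OPC peak (circles) at the receptor and channel genes named in the text, as the distance of the peak centre from the nearest start of that gene in kb, linear within 1 kb (grey band) and on a log scale beyond it. Negative values are upstream, and for the 2 leftmost Cacna2d3 peaks they are upstream of a start inside the gene. Filled symbols hold a TCAT tract. In the band lie 6 OLG peaks and 7 OPC peaks, and most OPC peaks lie outside it.

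Of the 10 OLG peaks, 6, or 60% (26.2 to 87.8), were within 1 kb of a start of the member, and of the 34 OPC peaks 7, or 20.6% (8.70 to 37.9). The intervals overlap, and the difference was not tested. For peaks at all protein-coding genes the shares were 56.6% in OLG and 47% in OPC, counting a start of any gene the peak was assigned to. By that wider measure 2 more of the members' OPC peaks, and 0 more of their OLG peaks, would count, since they lay within 1 kb of another gene's start. In genes, that was 5 of 99 in OLG, where all protein-coding genes gave 4.04%, and 7 of 99 in OPC, where they gave 8.15%. Introns held 5 OLG and 21 OPC peaks, and coding exons 0 and 3. Over 10 kb from any start of the member lay 1 OLG peak and 19 OPC peaks. For 2 OLG and 14 OPC peaks the nearest protein-coding start was that of another gene. Counted within 10 kb of a start alone, without the gene body, 8 members had an OLG peak and 11 an OPC peak (8.08% and 11.1%, where all protein-coding genes gave 6.43% and 12.6%).

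Promoter peaks were GC-rich in both lists. The 6 OLG promoter peaks had 55.5 to 70.5% GC and 11 to 15 CpG in the 200 bp around the centre, and the 7 OPC promoter peaks 46.0 to 71.5% GC and 7 to 22 CpG. Their median GC was 66.5% and 67%, against 53.5% for the other 4 OLG peaks and 48% for the other 27 OPC peaks. Starts of these genes with a peak within 1 kb had a median of 65.7% GC in the window from 250 bp before to 50 bp after (18 starts), against 56.7% for the 205 without. A gene with several starts entered once for each, so the starts belong to fewer genes and are not independent. Over all protein-coding genes the same medians were 64.3% and 55.3%.

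TCAT tracts were found away from the starts. Tracts of at least 12 bases, on either strand and in any phase, lay within the 200 bp around the centre of 0 of 10 OLG peaks (0 to 30.8%) and 6 of 34 OPC peaks, or 17.6% (6.76 to 34.5). At peaks of all protein-coding genes the shares were 5.06% in OLG and 11.3% in OPC. Windows of the same width 2 kb to either side held a tract in 0 of 20 cases for OLG and 0 of 68 for OPC at the members. At all genes they held one in 0.0338% and 0.157% of cases. None of the 6 repeat peaks lay within 1 kb of a start, and all had a low GC content, 33.5 to 46.0%, with 1 or 2 CpG. TCAT read along the coding strand of the gene in 2 of the 6, Grik4 and Cacna2d3, and along the other strand in the rest, among them Cacng2, Cacna1e and Grik3.

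Most TCAT tracts at the receptor and channel genes had no peak, and the 4 longest had one. Their territory held 128 tracts, or 7.42 per Mb, near the 7.13 per Mb of all protein-coding genes. Of these 128, 0 lay at an OLG peak (0 to 2.84%) and 7 at an OPC peak, or 5.47% (2.23 to 10.9), against 0.942% and 5.50% of the 8595 tracts at all genes. Ranked by length, the first 4 were all at OPC peaks, namely 53 bases at Cacng2, 49 at Cacna1e, 45 at Grik4 and 43 at Cacng2. The next 6, of 32 to 40 bases, were not, at Cacng3, Gabra2, Cacna1a, Grm5, Gabrb2 and Cacna1i. Gabra2 and Cacna1a had OPC peaks elsewhere and none on their 40-base and 39-base tracts. Of tracts of 12 to 15 bases 1 of 80 was at an OPC peak, of 16 to 23 bases 0 of 25, of 24 to 31 bases 2 of 13, of 32 to 47 bases 2 of 8 and of 48 or more 2 of 2. The shares over all protein-coding genes in the same classes were 2.19%, 4.42%, 10.7%, 22.1% and 48.8%. With so few long tracts the members' intervals are wide (3.19 to 65.1% for 32 to 47 bases).

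**Figure D4:**
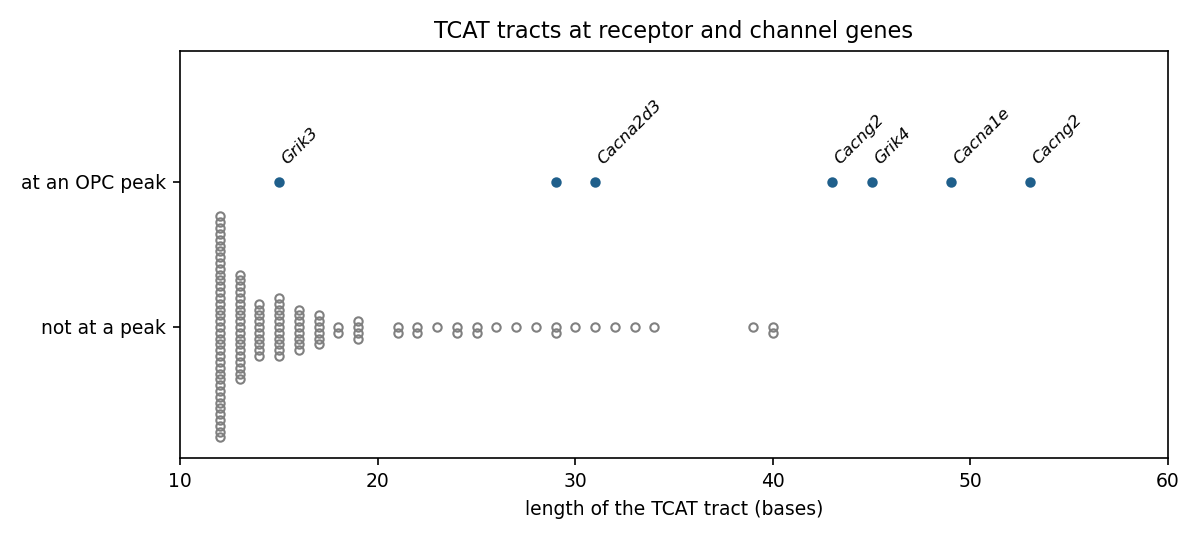
Length in bases of the 128 TCAT tracts at the receptor and channel genes, split into the 7 at an OPC peak (filled, with the gene where the text names it) and those at no peak (open, stacked where lengths are equal). No tract was at an OLG peak. The 4 longest tracts, of 43 to 53 bases, are all at OPC peaks.

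Other genes of the synapse were counted by the same rule. Of 34 genes for scaffolds and auxiliary proteins (median length 110 kb), 5 had an OLG peak and 11 an OPC peak, or 14.7% and 32.4%. All protein-coding genes gave 7.78% and 16.2%, and those of 100 to 300 kb gave 14.8% and 34.3%. Dlgap4, a postsynaptic scaffold gene, had promoter peaks in both lists that overlapped, 352 bp upstream in OLG and 388 bp upstream in OPC. Homer1, which encodes a scaffold that links metabotropic glutamate receptors to other proteins, had 2 OLG peaks, 73 and 179 bp upstream of different starts. Ank2, an ankyrin gene, had 3 OPC peaks. Of 19 receptor genes outside the name rule (median length 38.9 kb), 3 had an OLG peak and 3 an OPC peak, or 15.8% each. All protein-coding genes of 30 to 100 kb gave 9.62% and 20.5%. Among the 19 receptor genes P2rx7, an ATP-gated channel gene, had 3 OPC peaks, with 1 in a coding exon 176 bp from a start.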

How the data were processed

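ZFP24 ChIP-seq used an antibody against ZNF24, the human ortholog, per the labels' protocols, with 75 nt single-end reads aligned to mm10. BWA (version not given) and HOMER 4.8.3 are named in the submitters' processing notes, with no role stated. Calling options, threshold and the use made of the null and input libraries: not given in the sources used here. The deposited lists hold positions without score or count, and all peaks are 221 bp (OLG) or 209 bp (OPC) wide.

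Peaks were set against GENCODE M21 basic genes and GRCm38 (1-based positions) in Python 3.11.15 with numpy 2.4.6, scipy 1.17.1 and pysam 0.24.0. Shared peaks overlapped by at least 1 bp. With 1 library per group, no test was run, and counts stand beside those of all protein-coding genes. The genes and lists were chosen with earlier results of these data known. Members with a peak are named, except a few that are not reported here, with the 4 longest without one and the nearest uncounted ones. Peak assignment and repeat search were tested on simulated data. Other windows, assignments, repeat lengths and overlap rules were tried. Null and input signal was not analysed here.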

Additional observations from a re-analysis of the deposited data

How the results depend on the processing

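The counts followed the window and the use of the gene body. With peaks within 1 kb of a start alone, 5 members had an OLG peak, 7 an OPC peak and 2 both (2.02%, all genes 1.08%). With 10 kb around starts alone, the OPC count was 11 in place of 22, and the shorter territory held 3.67 OLG and 6.11 OPC peaks per Mb. The density over all genes is not given for start windows alone. These 2 values therefore cannot be set against the 1.23 and 2.91 of all genes, which include gene bodies. With 50 kb the OPC count was 36, or 36.4%, where all genes gave 30.3%. With gene bodies alone 3 members had both (3.03%, all genes 2%). The members' OPC share was below that of all genes for 10 kb (11.1%, all genes 12.6%) and 1 kb (7.07%, all genes 8.15%) around starts alone and for the nearest start (16.2%, all genes 16.7%). Their OLG share was below it for 50 kb (13.1%, all genes 15.5%) and for the nearest start (7.07%, all genes 7.39%). Keeping the peaks numbered up to the median of their chromosome in each list, by the number in the peak name, whose meaning is not stated, gave 5 OLG and 10 OPC members and 2 with both, or 5.05%, 10.1% and 2.02%, where all genes gave 4.31%, 9.48% and 1.49%. It also gave 0.753 OPC peaks per Mb, and a TCAT tract in 46.2% of member OPC peaks. No value over all genes stands beside either of these, so they are not set apart from the lower-numbered peaks in general. With a required overlap of 50% of the OPC peak, 10% of member OLG peaks and 2.94% of member OPC peaks were shared. The 50% setting has no value over all genes beside it. With any overlap the shares were 40% (4 of 10 peaks, 12.2 to 73.8) and 11.8% (4 of 34 peaks, 3.30 to 27.5). Peaks at all genes gave 14.7% and 6.22%, both within these intervals. The other settings kept the counts over all members within 1.5 times of the values given, and the densities and shares over all members within their intervals. Subfamily counts of 1 to 5 genes often moved by more. With 2 kb around starts, alpha1 OLG genes numbered 1 in place of 2, alpha2delta OLG genes 0 in place of 1 and beta OPC genes 1 in place of 2. By the nearest start, alpha1 OPC genes numbered 3 in place of 5. Kainate receptor OPC genes numbered 2 of 5 with the lower-numbered peaks. Without peaks within 1 kb of the start of a gene that is no member, a setting chosen after seeing the data, 9 members had an OLG peak and 21 an OPC peak, with Cacnb1 lost. No share of all genes is set beside these, because this setting also takes away the peaks at the other genes' own starts. The causes of these shifts were not tested beyond the windows themselves. No paired analysis was possible because each group has 1 library, which also leaves no replicate to leave out. Depth is unknown, so a gene without a peak may hold a site below the threshold.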
